A study of Oryza sativa with 6 samples.

Results

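Homeobox genes encode transcription factors that bind DNA through a homeodomain. In plants they control how meristems, leaves, epidermis and roots are laid down, and several of them act in drought and hormone responses. The genes described here were found by name in a RefSeq table of japonica rice genes: a symbol or synonym had to read HOX, HB, ROC, WOX or OSH followed by a number, with or without a leading Os. Of 39387 genes in the table, 57 matched. Of these, 4 are the haemoglobin genes NSHB1 to NSHB4, which the table also calls hb1 to hb4 or HB2, and 1 is the histone gene H2B.7, also called OsH2B. They carry no homeobox by their names, were set apart, and left 52 homeobox genes. Of these, 12 belonged to class I, 9 to class II, 5 to class III and 9 to class IV of the HD-Zip family, 8 were KNOX genes, 8 were WOX genes, and HOX1A (also named HAZ1) was kept by itself. A probe set of its own was listed for 47 of the 52. None was listed for OsHox3, Roc9, OSH10, OSH15 and OsWOX5, whose levels were not analysed here.

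HD-Zip proteins join the homeodomain to a leucine zipper through which they pair. Class I proteins are known from responses to drought and abscisic acid, class II from auxin and shade responses, and class IV, which in rice holds the ROC proteins (rice outermost cell-specific), from the epidermis. Class III proteins specify the upper side of the leaf, the vascular tissue and the shoot meristem, and their transcripts are targets of the microRNA miR166. Class I KNOX proteins keep meristem cells undifferentiated and act on gibberellin and cytokinin enzymes, and WOX proteins, named after WUSCHEL, maintain stem cells in shoot and root meristems.

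The samples were young leaves of 11-day-old seedlings of the indica rice variety Minghui63. In the RNAi group, 3 arrays came from plants transformed with an RNA interference construct against OsSRT1, a sirtuin (an NAD-dependent deacetylase). The construct holds an inverted repeat made from 412 bp of the OsSRT1 3' untranslated region, and the plants were sampled before the lesions that they develop. In the control group, 3 arrays came from wild-type Minghui63 without the construct. The RNAi titles name the lines LM1, LM2 and LM3 and do not say whether these are independent transformants. The submitters call the arrays biological repeats.

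Each Affymetrix rice array reports 57381 probe sets. The deposited intensities were scaled to 1 trimmed mean per array, and 28597 probe sets in the upper part of the signal range were tested with limma. All control arrays share 1 hybridization entry in the instrument records and all RNAi arrays a later one, so this entry and the genotype cannot be told apart. No probe set was named OsSRT1, so the target of the hairpin did not check the labels. The leaf markers CAB2R, OsrbcS and rca had signals of 18862 or more on every array, while RBCS1 stayed at 41.3 or less. The named markers of dividing cells summed to 615 to 899 in RNAi leaves and 823 to 909 in control leaves, over 7 genes. Most of this sum came from OsPCNA, with 330, 604 and 644 in RNAi leaves and 560, 623 and 605 in control leaves. The 7 measured root markers summed to 1040 to 1594 in RNAi leaves and 1824 to 2031 in control leaves, with Lsi2 at 9.49 or less on every array. Most of the sum came from Lsi1, with 842, 1203 and 1396 in RNAi leaves, against 1573, 1794 and 1600 in control leaves. Lsi1 did not pass (adjusted p = 0.2, limma). The part of these cell types in the results below was not tested. In a leaf extract, fewer cells of a type and less RNA per cell cannot be told apart.

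RNAi leaves differed from control leaves past the threshold at 1 homeobox gene. OsHox9, also named HB2 and a member of class III, was higher by a fitted 1.83-fold. Of the 47 homeobox genes with a probe set, 32 passed the signal filter. Among these 32, 1 rose, 0 fell and 31 did not pass an adjusted p of 0.05 (limma, Benjamini-Hochberg over all tested probe sets), a share of 3.12%. Over all 28597 tested probe sets, 2.1% passed, 1.09% higher and 1.01% lower in RNAi leaves, and 2.33% passed when 1 probe set per gene was kept. The family's share, 1 gene, lay near this background. At an unadjusted p under 0.05 the count was 8 of 32, against 15.6% of all tested probe sets. With SAM, the test that the submitters name, 0 of the 32 were called, beside 1.86% of all tested probe sets.

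The median log2 fold change of the 32 genes was 0.07, beside 0.03 for all tested probe sets. Of the 32, 20 had a positive and 12 a negative value, and 54.3% of all tested probe sets had a positive one. The 95% interval of the log2 fold change lay between -1 and 1 for 25 of the 32 genes, as it did for 69.8% of all tested probe sets. On the brightest probe set of each gene, the difference at these 25 was thus bounded to less than 1 in either direction. At the other 7 genes, all of them of class I or class III, the interval reached past 1 or -1. Some of the 25 have a dimmer tested probe set whose interval also reached past 1 or -1. These were OsHox10 (-0.21 to 2.19), OsHox5 (-1.05 to -0.05), OsHox19 (-1.29 to 0.89) and Roc6 (-0.36 to 1.27). RNAi and control values did not overlap at 8 of the 32 genes (25%), 2 of them higher and 6 lower in RNAi leaves. Over all tested probe sets this held for 22.4%, 12.5% higher and 9.88% lower.

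**Figure D1:**
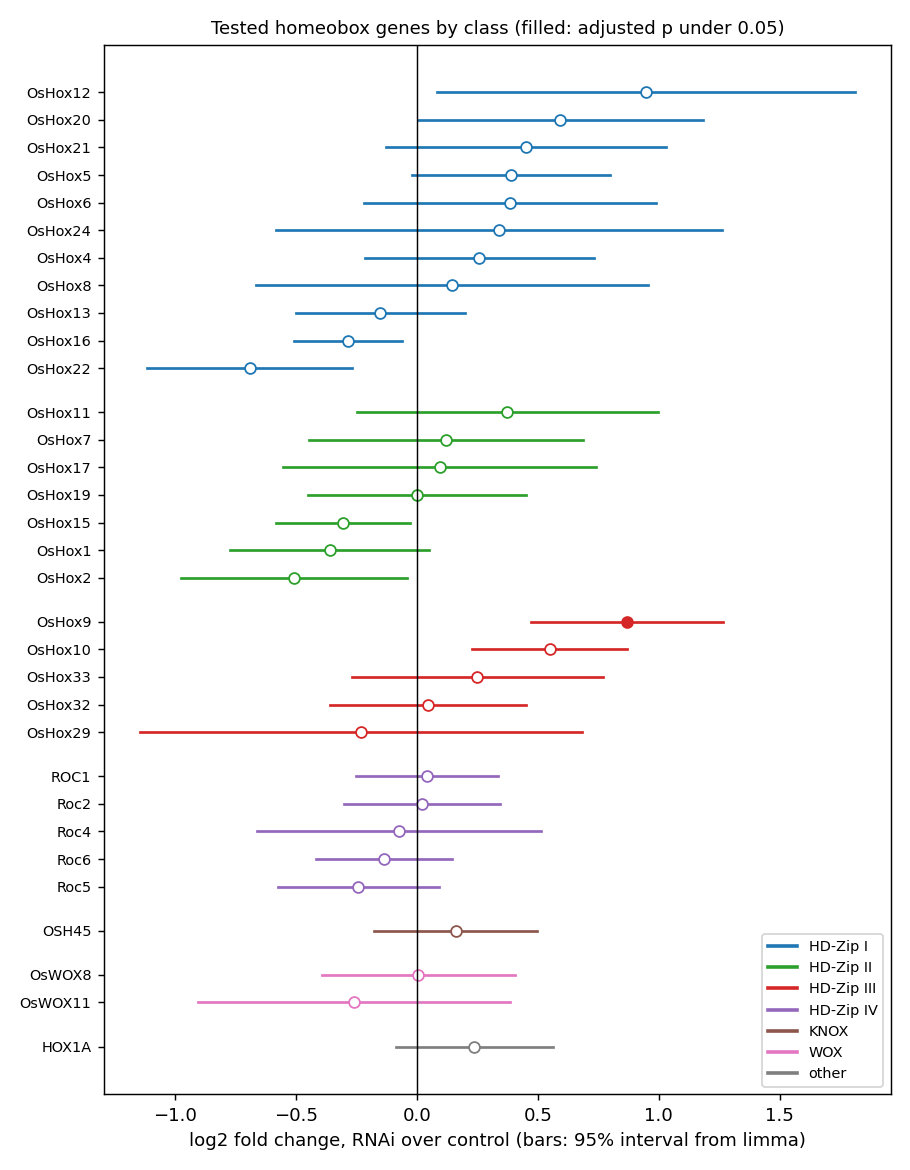
Log2 fold change (RNAi over control, horizontal axis) with its 95% interval from limma for the 32 tested homeobox genes, grouped and coloured by class. Filled points passed an adjusted p of 0.05, which only OsHox9 did. Values run from -0.69 (OsHox22) to 0.95 (OsHox12), and the interval of each tested class IV gene includes 0.

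In class III, which sets the upper leaf side, OsHox9 rose, and OsHox10 had a positive difference that did not pass. OsHox9 had scaled signals of 1838, 1959 and 1770 in RNAi leaves, against 1255, 781 and 1045 in control leaves. Every RNAi array was above every control array, and the RNAi arrays lay closer together. The means were 1856 ± 95.8 in RNAi leaves and 1027 ± 238 in control leaves (SD, n = 3 each). The log2 fold change was 0.87 ± 0.18 (SE), with a 95% interval of 0.47 to 1.27 and an adjusted p of 0.0433 (limma). This call sat close to the threshold: OsHox9 passed under 4 of the 15 alternative settings of the processing that gave it a value and in 1 of the 6 leave-one-out fits, where the adjusted p ran from 0.0375 (without control replicate 1) to 0.139 (without RNAi replicate 2). The direction was the same in all 15. The name of its probe set marks it as reading several transcripts, as do the names for 13 of the 32 tested genes.

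OsHox10, which the table also calls OsHB1, had signals of 1133, 1110 and 1048 in RNAi leaves, against 833, 657 and 753 in control leaves. These groups did not overlap either. The log2 fold change was 0.55 ± 0.14 (SE) with a 95% interval of 0.23 to 0.87, and the adjusted p was 0.0965. On the signals as deposited, where the median of all probe sets moved to -0.52, it was -0.09, or 0.43 relative to that median. A second, dimmer probe set of OsHox10 had a log2 fold change of 0.99 ± 0.53 with overlapping groups (63.9, 108 and 67.8 in RNAi leaves, against 92.5, 7.18 and 26.4 in control leaves).

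The other class III genes overlapped between the groups. OsHox33, whose loss hastens leaf senescence in rice, had signals of 249, 210 and 197 in RNAi leaves, against 155, 155 and 241 in control leaves. Control replicate 3 lay within the RNAi range, and the log2 fold change was 0.25 ± 0.23 (adjusted p = 0.643). OsHox32, which gives narrow and rolled leaves when overexpressed in rice, had 335, 349 and 285 in RNAi leaves and 355, 282 and 301 in control leaves. Its log2 fold change was 0.05, with a 95% interval of -0.36 to 0.45. OsHox29, also called OSHB5, was dim, with 78.4, 32.9 and 46.9 in RNAi leaves and 70.6, 96.1 and 32.4 in control leaves, and its interval of -1.15 to 0.68 left the difference poorly bounded. Over the 5 genes the median log2 fold change was 0.25, with 4 positive and 1 negative. The median ran from 0.15 to 0.45 in the 6 leave-one-out fits, the highest of them without control replicate 3. On the deposited scale it was -0.37, or 0.15 relative to the median of all probe sets.

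**Figure D2:**
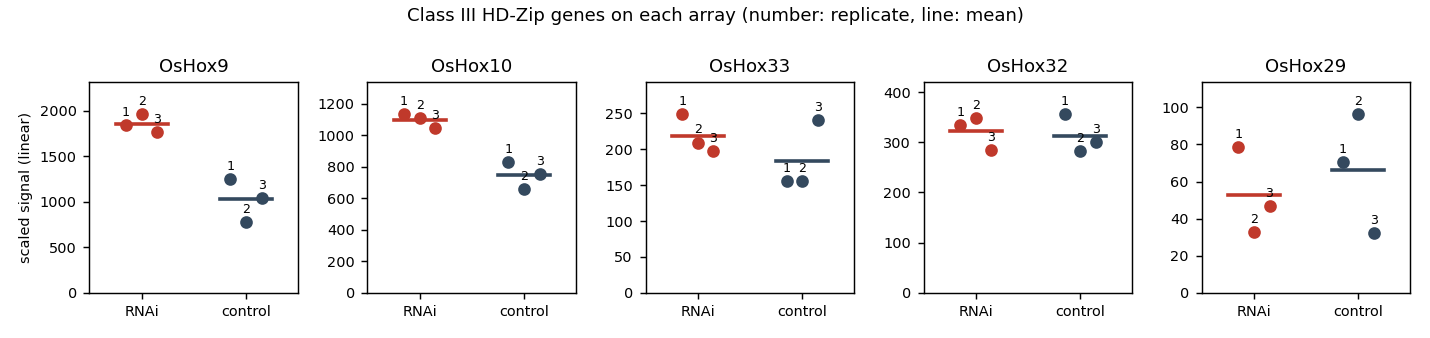
Scaled signal (vertical axis, linear, from 0, a separate range per gene) of the 5 class III HD-Zip genes on each array, RNAi left and control right; points are arrays numbered by replicate and lines are means of 3. RNAi arrays lie above all control arrays for OsHox9 (1770 to 1959 against 781 to 1255) and OsHox10 (1048 to 1133 against 657 to 833), and the groups overlap in the other 3 panels.

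Class I HD-Zip genes spread from -0.69 to 0.95 in log2 fold change. Of 11 tested genes 0 passed (4 at an unadjusted p under 0.05), with 8 positive and 3 negative values. The lowest value of the family was that of OsHox22, a gene induced by drought and abscisic acid. It had signals of 4192, 3371 and 2638 in RNAi leaves, against 4482, 6407 and 5491 in control leaves. All RNAi values were below all control values, with 4192 and 4482 the nearest pair. The log2 fold change was -0.69 ± 0.19 (SE; 95% interval -1.12 to -0.27; adjusted p = 0.114). Without RNAi replicate 1 it passed (log2 fold change -0.85, adjusted p = 0.0367), and its sign was negative in all 16 alternatives.

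OsHox24 and OsHox6, which also respond to drought in rice, did not share that direction. OsHox24 had 1995, 1830 and 1498 in RNAi leaves, against 622, 2205 and 1942 in control leaves. Control replicate 1 was low, and without it the log2 fold change was -0.23, beside 0.34 ± 0.41 with all arrays. OsHox6 had 2875, 1481 and 1358 in RNAi leaves, against 1612, 1358 and 1179 in control leaves. Here RNAi replicate 1 was high: the log2 fold change was 0.38 ± 0.27 with all arrays and 0.05 without it. OsHox4, which acts in gibberellin responses in rice, had 6115, 6365 and 6447 in RNAi leaves, against 3643, 5669 and 7079 in control leaves. The RNAi arrays lay inside the control range, and the log2 fold change of 0.26 became -0.006 without control replicate 1.

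**Figure D3:**
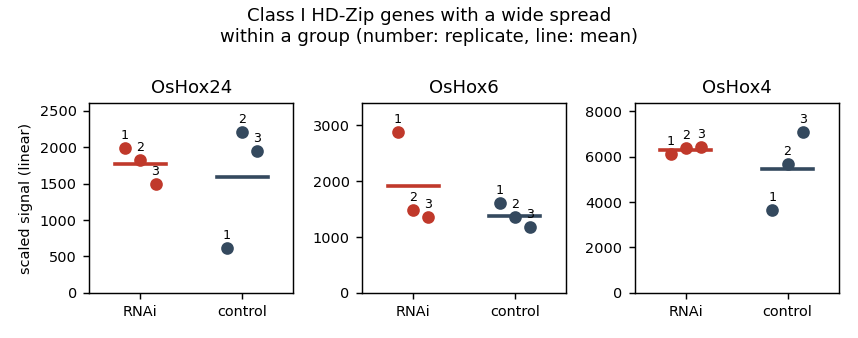
Scaled signal (vertical axis, linear, from 0, a separate range per gene) of OsHox24, OsHox6 and OsHox4 on each array, RNAi left and control right; points are arrays numbered by replicate and lines are means of 3. These genes were picked after their values were seen: control replicate 1 is low for OsHox24 (622) and OsHox4 (3643), and RNAi replicate 1 is high for OsHox6 (2875).

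The highest value in class I was that of OsHox12, which controls panicle exsertion in rice, a gene near the low end of the tested range. It had 78.0, 160 and 89.2 in RNAi leaves, against 33.7, 33.2 and 83.2 in control leaves, so the groups overlapped through control replicate 3. Its log2 fold change was 0.95 ± 0.38 (SE; 95% interval 0.08 to 1.81; adjusted p = 0.276). OsHox20 had 260, 170 and 239 in RNAi leaves, against 117, 122 and 193 in control leaves, again with control replicate 3 inside the RNAi range. Its log2 fold change was 0.59 ± 0.26 (adjusted p = 0.315), and a second probe set gave 0.53 ± 0.28 with groups that did not overlap.

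OsHox16 had the highest mean signal in its class on its own probe set, which sets no order of expression between genes. Its signals were 11647, 13606 and 14219 in RNAi leaves, against 15394, 15862 and 16657 in control leaves. The groups did not overlap and the difference was small, a log2 value of -0.28 ± 0.10 (SE) for RNAi over control (adjusted p = 0.21). OsHox13 had 8069, 7336 and 5732 in RNAi leaves and 8897, 7922 and 6603 in control leaves. The groups overlapped, and the log2 fold change was -0.15 with a 95% interval of -0.50 to 0.20.

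Of the remaining class I genes, OsHox21 had 294, 335 and 293 in RNAi leaves and 325, 206 and 158 in control leaves (log2 fold change 0.45 ± 0.26, adjusted p = 0.442). OsHox8 had 39.0, 70.8 and 92.9 in RNAi leaves and 39.5, 56.5 and 79.6 in control leaves, with overlapping groups. OsHox14, which acts in the rice panicle, was below the filter, at 2.89 to 23.5 in RNAi leaves and 1.60 to 4.41 in control leaves. The median of the 11 tested class I genes was 0.34 on the log2 scale. It rested on control replicate 1: without that array it was -0.006, and on the deposited scale it was -0.31, or 0.22 relative to the median of all probe sets.

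In class II, 0 of 7 tested genes passed (2 at an unadjusted p under 0.05), and the 3 genes whose groups did not overlap were all lower in RNAi leaves. OsHox1, tied to auxin transport and vascular development in rice, had 1987, 3028 and 3142 in RNAi leaves, against 3289, 3166 and 3867 in control leaves. RNAi replicate 1 was the lowest value, and the log2 fold change of -0.36 ± 0.18 (SE; adjusted p = 0.383) was -0.15 without it. OsHox15 had 2057, 2057 and 1982 in RNAi leaves, against 2270, 2854 and 2458 in control leaves. Its RNAi arrays were tightly grouped, and the log2 fold change was -0.31 ± 0.12 (adjusted p = 0.272).

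OsHox2 had 132, 167 and 172 in RNAi leaves, against 213, 211 and 266 in control leaves, the largest negative log2 fold change of class II at -0.51 ± 0.21 (SE; 95% interval -0.98 to -0.04; adjusted p = 0.28). Its direct neighbour on chromosome 6 is OsHox28, a tiller angle gene of the same class, which was below the filter at 1.63 to 15.1 in RNAi leaves and 8.18 to 38.2 in control leaves. The share of class II genes whose groups did not overlap was 42.9%, of 7 genes, beside 22.4% of all tested probe sets. The remaining tested class II genes overlapped between the groups. OsHox11 had a log2 fold change of 0.37 ± 0.27, OsHox7 of 0.12 ± 0.25, OsHox17 of 0.09 ± 0.29 and OsHox19 of -0.0006 ± 0.20 (SE). The signals of OsHox19 were 173, 241 and 218 in RNAi leaves and 208, 224 and 196 in control leaves. The class median was -0.0006, and -0.02 relative to the median of all probe sets on the deposited scale. With probe sets that read several transcripts left out it was -0.36, over the 3 genes that still had a tested probe set (OsHox1, OsHox2 and OsHox19).

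**Figure D4:**
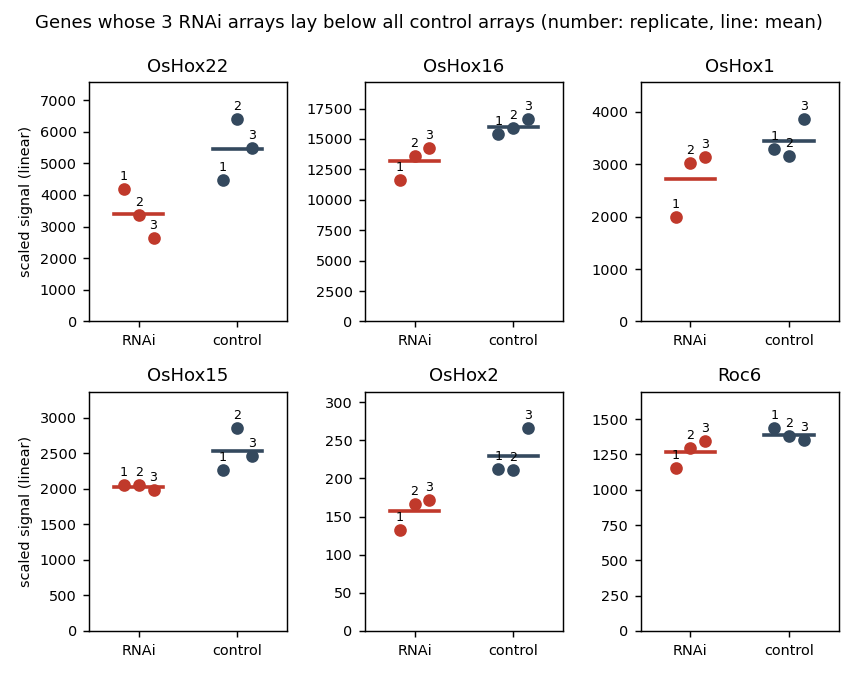
Scaled signal (vertical axis, linear, from 0, a separate range per gene) of the 6 tested homeobox genes whose 3 RNAi arrays lay below all 3 control arrays, RNAi left and control right; points are arrays numbered by replicate and lines are means of 3. The nearest arrays are 4192 and 4482 for OsHox22 and 1348 and 1352 for Roc6; none of the 6 passed an adjusted p of 0.05.

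Class IV genes act in the outermost cell layer. Of 5 tested genes 0 passed, also at an unadjusted p under 0.05 (0 of 5). On the brightest probe set of each gene, every 95% interval lay between -1 and 1 and included 0. The dimmer probe set of Roc6 had an interval of -0.36 to 1.27. ROC1 had 1840, 1758 and 2054 in RNAi leaves and 1924, 1615 and 1955 in control leaves. Its log2 fold change was 0.04 with an interval of -0.25 to 0.34. Roc2 had 1578, 2080 and 1804 in RNAi leaves and 1992, 1718 and 1653 in control leaves, with a log2 fold change of 0.02 and an interval of -0.30 to 0.35.

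Roc5, which controls the bulliform cells that roll the rice leaf, had 3870, 3020 and 2649 in RNAi leaves and 3818, 3488 and 3865 in control leaves. RNAi replicate 1 lay above every control array, and the log2 fold change of -0.24 ± 0.15 (SE; adjusted p = 0.47) was -0.39 without it (adjusted p = 0.105). Roc6 had 1154, 1298 and 1348 in RNAi leaves, against 1436, 1382 and 1352 in control leaves. These did not overlap, by a margin far smaller than the spread within either group, and the log2 fold change was -0.14 ± 0.12. Roc4, a regulator of leaf wax in rice, had 100, 90.4 and 90.3 in RNAi leaves and 81.2, 134 and 89.6 in control leaves. Below the filter lay Roc3, Roc7 and Roc8, with no array above 60.7. Roc8 averaged 3.71 ± 0.67 in RNAi leaves and 16.6 ± 11.5 in control leaves (SD, n = 3 each), where the nearest arrays of the groups were almost equal. The median of the tested class was -0.08, and -0.08 relative to the median of all probe sets on the deposited scale.

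Most meristem genes of the KNOX and WOX classes were near the floor in these leaves, in both groups. Of 6 KNOX genes with a probe set only OSH45, a gene of the second KNOX class, which differentiated leaves also express, passed the filter. OSH45 had 6171, 4313 and 5109 in RNAi leaves and 4282, 4335 and 5252 in control leaves. The groups overlapped, with a log2 fold change of 0.16 ± 0.15 (SE; 95% interval -0.18 to 0.50). The class I KNOX gene OSH1, which maintains the shoot meristem, had 14.5 in RNAi replicate 1 and 34.7 in control replicate 1, and 3.46 or less on the other arrays. OSH3, with 1 gene between it and OSH1 on chromosome 3, had 4.92 to 8.98 in RNAi leaves and 4.15 to 7.69 in control leaves. OSH6 had 24.9, 24.3 and 4.59 in RNAi leaves, against 26.2, 51.0 and 25.0 in control leaves, which did not overlap by a narrow margin. OSH71 had at most 30.7 in RNAi leaves and 45.7 in control leaves.

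OSH43 had 42.3, 18.7 and 74.8 in RNAi leaves, against 18.9, 10.9 and 27.5 in control leaves. Its second probe set had 42.4, 58.6 and 7.17 in RNAi leaves, against 6.35, 4.66 and 3.11 in control leaves. All RNAi arrays were above the control arrays on that second probe set, which was too dim to be tested. These signals give no detection calls, so they do not tell whether a transcript was absent.

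Of 7 WOX genes with a probe set, 2 were tested and 0 passed, also at an unadjusted p under 0.05 (0 of 2). OsWOX8 had 1457, 1197 and 1054 in RNAi leaves and 997, 1319 and 1380 in control leaves. Its log2 fold change was 0.006 with a 95% interval of -0.39 to 0.40. OsWOX11, which drives crown root formation, had 64.2, 124 and 103 in RNAi leaves and 139, 116 and 96.3 in control leaves (log2 fold change -0.26 ± 0.28). The other 5 lay below the filter. OsWOX9, also called QHB and known from the quiescent centre of the root, had 6.94, 61.9 and 2.39 in RNAi leaves and 31.1, 56.0 and 48.9 in control leaves. OsWOX4, a meristem gene, had 3.13 to 4.05 in RNAi leaves and averaged 18.9 ± 26.9 in control leaves (SD, n = 3), where only control replicate 1 exceeded 4.08. OsWOX6 had 45.4, 50.8 and 36.8 in RNAi leaves and 55.4, 19.6 and 1.78 in control leaves, while no array reached 25 for OsWOX7 or OsWOX10. HOX1A had 2894, 2219 and 2176 in RNAi leaves and 2210, 1896 and 2024 in control leaves, and its log2 fold change of 0.24 ± 0.14 (SE; adjusted p = 0.467) was 0.11 without RNAi replicate 1.

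The classes were set side by side without a test, since their members were chosen by name with results of these data known. The tested medians were 0.34 for class I (-0.006 without control replicate 1) and -0.0006 for class II (-0.36 without probe sets that read several transcripts). They were 0.25 for class III and -0.08 for class IV of the HD-Zip genes, beside 0.03 for all tested probe sets. The KNOX and WOX classes had 1 and 2 tested genes, too few for a class value to be read. Of the 15 homeobox genes below the filter, 10 were KNOX or WOX genes and 5 were HD-Zip genes, with no signal above 74.8 on any array.

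Genes read by more than 1 tested probe set show how far a value depends on the probes. Of 7 such homeobox genes, OsHox10, OsHox20 and OsHox19 had probe sets of 1 sign, and OsHox5, OsHox16, OsHox7 and Roc6 had probe sets of opposite sign. OsHox5 was the widest apart. Its brighter probe set had 1977, 3204 and 2329 in RNAi leaves, against 1740, 2098 and 1789 in control leaves (log2 fold change 0.39 ± 0.18, adjusted p = 0.345). Its dimmer probe set had 176, 148 and 167 in RNAi leaves, against 228, 318 and 205 in control leaves (log2 fold change -0.55 ± 0.22, adjusted p = 0.272). On the first the groups overlapped, and on the second every RNAi array was below every control array, so no direction is given for OsHox5. The second probe set of OsHox16 had a log2 fold change of 0.10 with overlapping groups, in place of -0.28.

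**Figure D5:**
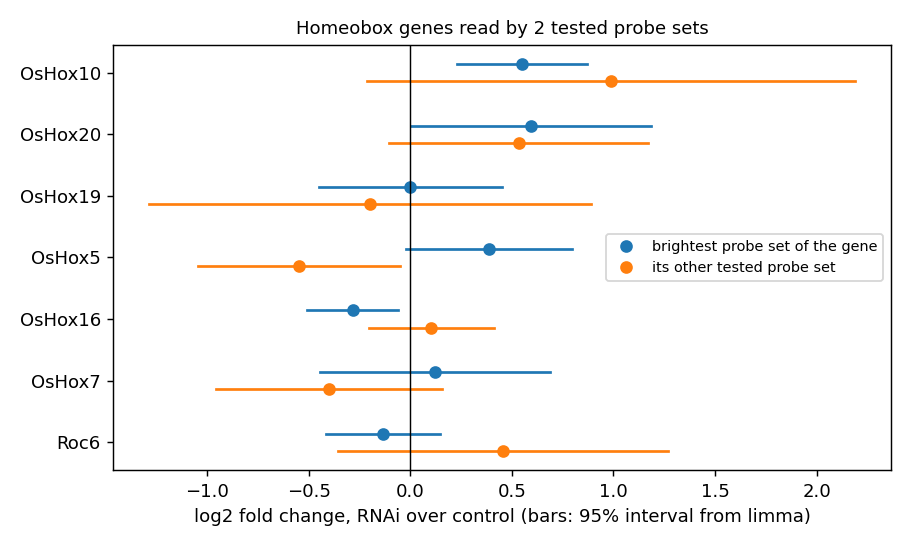
Log2 fold change (RNAi over control, horizontal axis) with its 95% interval from limma for the 7 homeobox genes with 2 tested probe sets; the brighter probe set of each gene, used in the text, is drawn above the other. The values have opposite signs for OsHox5 (0.39 and -0.55), OsHox16 (-0.28 and 0.10), OsHox7 (0.12 and -0.40) and Roc6 (-0.14 and 0.45).

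Genes that work beside homeobox proteins were taken from lists of symbols. The tested gibberellin and cytokinin enzyme genes, listed for their link to KNOX proteins, were GA20OX2, GA20OX3 and otherwise genes of the LOG family. Of these 9 genes, 0 rose, 1 fell and 8 did not pass, and the median log2 fold change was 0.14. Over all tested probe sets, 1.09% were higher and 1.01% lower past the threshold. GA20OX2 and GA20OX3 had log2 fold changes of 0.31 and 0.14 (adjusted p = 0.524 and 0.791, limma). An action of KNOX proteins on the LOG family was not tested. The gene that fell was LOG, which releases active cytokinin in the rice shoot meristem. It had signals of 7349, 7267 and 7396 in RNAi leaves, against 13854, 12364 and 9937 in control leaves. The groups were well apart, and the log2 fold change was -0.70 ± 0.12 (SE), with adjusted p = 0.0246 (limma). LOG passed under 7 of the 15 alternative settings that gave it a value, and SAM did not call it. Of the 6 leave-one-out fits it passed in 2 (without RNAi replicate 1 and without control replicate 3). The adjusted p ran from 0.0104 to 0.133 over these 6 fits. Its relative LOGL7 had 4306, 2739 and 3451 in RNAi leaves, against 2176, 2082 and 2294 in control leaves. All RNAi values were higher, and the log2 fold change of 0.65 ± 0.16 had an adjusted p of 0.0891, which was 0.0451 without RNAi replicate 2. LOGL1 had 1353, 1384 and 1276 in RNAi leaves, against 929, 1074 and 1128 in control leaves, also without overlap (log2 fold change 0.36 ± 0.13, adjusted p = 0.234). LOGL9 had 381, 801 and 478 in RNAi leaves and 637, 790 and 898 in control leaves (log2 fold change -0.53 ± 0.26, adjusted p = 0.38), so the values of the LOG family had both signs. Groups did not overlap at 3 of the 9 genes, beside 22.4% of all tested probe sets. LOG and LOGL7 each have a second, dimmer probe set, whose values are not given here.

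Among leaf polarity, leaf margin and meristem genes, 0 of 17 tested members passed, with 10 positive, 7 negative and a median of 0.04. The lowest adjusted p was that of OsYAB2, of the YABBY family of leaf genes. It had 805, 704 and 684 in RNAi leaves, against 1065, 926 and 1055 in control leaves (log2 fold change -0.47 ± 0.14, adjusted p = 0.149). OsRS2, whose maize relative keeps KNOX genes off in leaves, had 202, 280 and 455 in RNAi leaves and 207, 147 and 235 in control leaves (log2 fold change 0.58 ± 0.30, adjusted p = 0.401). Of homeodomain genes with other names, 0 of 5 tested passed, with a median of -0.05. HOS58, HOS59 and HOS66 are KNOX genes named apart from the OSH series. HOS58 averaged 9832 ± 1034 in RNAi leaves and 9372 ± 179 in control leaves (SD, n = 3 each). HOS59 averaged 15548 ± 589 in RNAi leaves and 16115 ± 1142 in control leaves (SD, n = 3 each). HOS66 had 170, 332 and 353 in RNAi leaves and 669, 242 and 276 in control leaves, with control replicate 1 highest. The zinc finger homeodomain genes OsZHD10 and OsZHD1 had log2 fold changes of 0.22 and -0.31 (adjusted p = 0.493 and 0.526). Of the symbols listed for cuticle genes, only wsl3 matched, with a log2 fold change of 0.05. This match was by name only, and whether the entry is a cuticle gene was not checked. Nothing is read from it about the cuticle.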

How the data were processed

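Per the submitters' processing notes, the authors used GCOS 1.2, and the deposited file holds 1 linear intensity for each probe set on each array. The sources used here do not give the summary method or the scaling. Control replicate 3 had a trimmed mean of 500.1, and the other arrays had 99.86 to 117.8. The deposited instrument records hold settings only and were read for the hybridization entry and fluidics module.

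Each array was multiplied to a mean of 500 with 2% trimmed from each end, 16 was added and log2 taken, so fold changes of low genes are understated. From 57381 probe sets, 123 control and 64 reporter probe sets and the lower 50% of the rest by mean log2 signal were left out of the test. The lowest tested mean log2 was 5.70. RNAi and control arrays were compared in R 4.3.3 by a two-sided test of limma 3.58.1, eBayes with a trend, adjusted by Benjamini-Hochberg over 28597 probe sets. Beyond the submitters' wording and the line names in the RNAi titles, nothing says that the arrays came from separate plants. The p-values thus cover only the spread among these samples, which may be technical. On simulated arrays of 28597 probe sets with independent noise, 31.8% of 2-fold and 65.6% of 4-fold changes were found, with 3.95% false calls.

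Genes were named through the platform annotation (22436 probe sets with 1 gene, 95 with several, which were not used) and the RefSeq table of assembly ASM3414082v1, joined by gene ID. The probe set with the highest mean signal stood for a gene. Haemoglobin and histone genes were recognised by their other synonyms. HD-Zip classes were assigned by HOX number from general knowledge. The members and the lists were chosen with earlier results of these data known. The genes to name were those past the threshold, HB2, in each class the 3 with the highest signal and the 3 with the largest log2 fold change, and those whose groups did not overlap. The other genes with a probe set were added so that all were accounted for. FC1 and GL2 were dropped from the lists because their synonyms name other genes. The other list matches rest on symbol or synonym alone. The alternatives were quantile normalization, the intensities as deposited, a pseudocount of 1 or 64, no filter, eBayes without a trend, the replicate block, SAM (written here with all 20 label permutations), the mean over a gene's probe sets, leaving out probe sets that read several transcripts, and leaving out each array. Groups and replicate numbers came from the sample titles. Same-numbered samples did not deviate together (correlations -0.05, 0.008 and 0.002), so the replicate number is a block only in an alternative.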

Additional observations from a re-analysis of the deposited data

How the results depend on the processing

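OsHox9 kept its direction in all 15 alternatives with a value and passed in 4 of them. Its log2 fold change and adjusted p were 0.22 and 0.883 on the intensities as deposited, 0.88 and 0.0514 with 1 added before log2, 0.87 and 0.0687 with no filter on low signal, 0.87 and 0.128 without the trend in eBayes, and 0.87 and 0.0803 with the replicate number as a block. SAM gave the same 0.87 and did not call it. Over the fits without 1 array it ran from 0.69 to 1.02 (adjusted p 0.0375 to 0.139). With no filter more probe sets are tested. The deposited intensities leave control replicate 3 at a trimmed mean of 500.1, beside 99.86 to 117.8 for the other arrays. Beyond these differences in input, the cause of the changes was not tested. The count of homeobox genes past the threshold, and of those higher, was 0 in place of 1 in the settings named before the leave-one-out fits. These were the intensities as deposited, 1 added before log2, no filter, no trend, the replicate block and SAM. The count was also 0 when probe sets with several transcripts were left out, which leaves OsHox9 without a probe set. Without 1 array the count was 0 to 1 in all, 0 to 1 higher and 0 to 1 lower, the lower gene being OsHox22. At an adjusted p of 0.1, a setting chosen after seeing the data, 2 of 32 passed (OsHox9 and OsHox10), both higher, beside 4% of all tested probe sets.

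All tested probe sets past the threshold numbered 601, and 37 as deposited, 394 with no filter, 303 without the trend, 424 with the replicate block, 532 by SAM and 240 to 877 without 1 array. The deposited scale moved the median of all probe sets to -0.52, and the class medians to -0.31 (HD-Zip I), -0.54 (HD-Zip II), -0.37 (HD-Zip III), -0.60 (HD-Zip IV), -0.63 (WOX) and -0.46 (all homeobox genes), which are 0.22, -0.02, 0.15, -0.08, -0.11 and 0.06 relative to that median. Leaving out probe sets with several transcripts moved the median to -0.36 for HD-Zip II and 0.25 for WOX. Without 1 array the medians ran from -0.006 to 0.43 (HD-Zip I), from 0.15 to 0.45 (HD-Zip III) and from -0.32 to 0.094 (WOX). The replicate block changed no other call among the homeobox genes. Of 667 values of other single genes under alternatives, 657 stayed on their side of the threshold, 2 passed only there (OsHox22 and LOGL7, each without 1 array) and the rest were values of LOG that no longer passed. Of the homeobox genes, 10 of the 32 tested kept 1 sign in every alternative. The alternative that leaves out proteins without a homeodomain motif was not run, as no protein sequences were used here. With 3 arrays in each group, precision is limited by their number.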

Other observations

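The haemoglobin genes that share the HB names were higher in mean level in RNAi leaves without passing. NSHB1, a plant haemoglobin of the kind that scavenges nitric oxide, had scaled signals of 3467, 1027 and 1250 in RNAi leaves, against 780, 722 and 517 in control leaves. Every RNAi array was above every control array, and RNAi replicate 1 was far above the rest. The log2 fold change was 1.29 ± 0.40 (SE; adjusted p = 0.159, limma), and 0.76 without RNAi replicate 1 (adjusted p = 0.0901). Its other probe sets had log2 fold changes of 0.74 and 0.91, each with overlapping groups. NSHB2 had 7245, 1923 and 3152 in RNAi leaves, against 1943, 1774 and 1538 in control leaves. RNAi replicate 1 was again the highest, the groups overlapped through RNAi replicate 2, and the log2 fold change of 1.01 ± 0.39 (adjusted p = 0.257) was 0.49 without RNAi replicate 1. NSHB3 and NSHB4, next to NSHB1 on chromosome 3, have no probe set of their own here. The histone gene H2B.7 had 2241, 2669 and 3072 in RNAi leaves and 2474, 2809 and 3179 in control leaves, with a log2 fold change of -0.09 and a 95% interval of -0.43 to 0.25.

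The 7 measured seed and pollen markers summed to 4139 to 7456 in RNAi leaves and 6328 to 6436 in control leaves. Most of this came from GLB1, with 2568, 6006 and 5863 in RNAi leaves and 4853, 4946 and 4769 in control leaves. RNAi replicate 1 was the lowest. GLB1 was matched by name only, and whether this entry is the seed gene was not checked. The sum is thus not read as seed or pollen signal.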
